A study of Mus musculus with 2 samples.

Results

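Mir298 and Mir296 are neighbouring microRNA genes at the imprinted Gnas locus on distal mouse chromosome 2. They are 2 of the 1973 miRNA genes counted in hearts of mouse embryos at day 11.5. The rows were found by Ensembl gene ID, ENSMUSG00000065410.1 for Mir298 and ENSMUSG00000065521.1 for Mir296. The pair was chosen by its place at an imprinted locus, with its own-strand counts in both libraries already known, so its levels are given as a description with no test. Both genes passed the limit for detection, at least 1 CPM in each library, where CPM is a gene's own-strand reads per 1000000 own-strand reads on all miRNA genes of that library.

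The small RNA libraries, size-selected below 30 nt per the labels, came from healthy hearts of the mouse strain B6NCrl, with male and female embryos pooled and no treatment or mutation named. Replicates 1 and 2 are biological replicates and form the only group. Replicate 1 pooled the hearts of 109 embryos, and the labels give no such number for replicate 2. Nothing states that the pools came from separate litters, so the spread between libraries may be partly technical. Whole hearts hold many cell types, and fewer cells of a type cannot be told apart from less RNA per cell.

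A miRNA gene is transcribed as a long precursor, and its hairpin is cut into a short duplex whose arms, 5p and 3p, can each be loaded into an Argonaute protein. The loaded arm pairs with target mRNAs mainly through its seed, here bases 2 to 8, and represses them. Gnas encodes the stimulatory G protein alpha subunit and shares its locus with imprinted transcripts that are made from the copy of one parent only. Nespas is an antisense RNA made from the paternal copy, and miR-298 and miR-296 have been described as paternally expressed members of the same cluster. In mouse embryonic stem cells miR-296 was reported to repress mRNAs of pluripotency factors, and in human endothelial cells it was reported to promote angiogenesis. miR-298 was reported in mouse to repress Bace1, the beta-secretase that cleaves the amyloid precursor protein. The embryos are of 1 inbred strain and the tables hold counts per gene, so the parental copy behind the reads was not measured.

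The mature arms are shown first, because the seeds set which mRNAs an arm can pair with, and the counts that follow do not separate the arms. Each runs 5′ to 3′ with the seed in capitals, from RefSeq on GRCm38.p6, where both genes matched.
miR-298-5p: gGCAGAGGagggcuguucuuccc
miR-298-3p: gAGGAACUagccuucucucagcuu
miR-296-5p: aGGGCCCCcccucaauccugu
miR-296-3p: gAGGGUUGgguggaggcucucc

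No other of the 1679 mature miRNA names in the RefSeq table had the seed of any of these 4 arms, and 72.1% of the names in that table likewise share their seed with no other name. The arms of the pair also had different seeds from each other. The longest run of bases that an arm of miR-298 shared with an arm of miR-296 was 5. By seed the genes are therefore neighbours in the genome and not members of 1 seed family. The nearest relative was miR-5621-3p, named here after its counts were seen, which shares bases 2 to 7 with miR-296-5p but not base 8. Mir5621 lies on chromosome 11, with 6 counts in replicate 1 and 0 in replicate 2. Its sequence is given below, with bases 2 to 8 again in capitals.
miR-5621-3p: uGGGCCCUccagaccucaugc

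The whole hairpins show where the arms lie and whether reads could be mistaken for those of another gene. Capitals mark the mature arms.
Mir298: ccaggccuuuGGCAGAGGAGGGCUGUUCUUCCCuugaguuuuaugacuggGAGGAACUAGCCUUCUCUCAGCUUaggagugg
Mir296: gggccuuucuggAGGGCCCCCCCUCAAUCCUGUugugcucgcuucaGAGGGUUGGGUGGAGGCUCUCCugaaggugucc

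Neither hairpin shared a run of 20 bases with any other hairpin of the RefSeq table. The longest run shared with another hairpin was 12 bases for Mir298 and 11 bases for Mir296. The counts leave out reads that map to several places, which made up 33.8% (replicate 1) and 33.2% (replicate 2) of all mapped reads. Reads that match places outside annotated hairpins were not examined.

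The hairpins shared a high predicted stability. RNAfold gave a minimum free energy of -42.7 kcal/mol for the 82 bases of Mir298 and -43.2 kcal/mol for the 79 bases of Mir296. Per base that was -0.52 for Mir298 and -0.55 for Mir296, against a median of -0.41 over the 1005 hairpins of the table. Over the 354 hairpins of detected genes the median was -0.43, closer to the pair. Over all 1005 hairpins, the energy per base was less negative in 87.5% than in Mir298, and in 91.5% than in Mir296. Their base composition differed, with 53.7% G and C in Mir298 and 63.3% in Mir296, against a median of 51.7%. Of the arms, miR-298-3p held 50.0% G and C and the other 3 held 65.2 to 68.2%.

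On GRCm38, the build also called mm10, Mir298 lies at chr2:174267504-174267585 and Mir296 at chr2:174267047-174267125, both on the minus strand. Mir298 is upstream, and 378 bases separate the genes. In the GENCODE M21 annotation no other gene overlaps either of them on either strand, so they are not annotated as exonic, intronic or in a UTR. The annotated 3′ end of Nespas lies 13651 bases upstream of Mir298 on the same strand, and its 5′ end 27851 bases upstream. Gnas begins in between, on the plus strand. Within 1 Mb the tables counted 2 further miRNA genes, Gm27591 and Mir6340, and both had 0 own-strand counts in each library. A count of 0 allows up to 0.162 CPM in replicate 1 and 1.49 CPM in replicate 2.

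**Figure D1:**
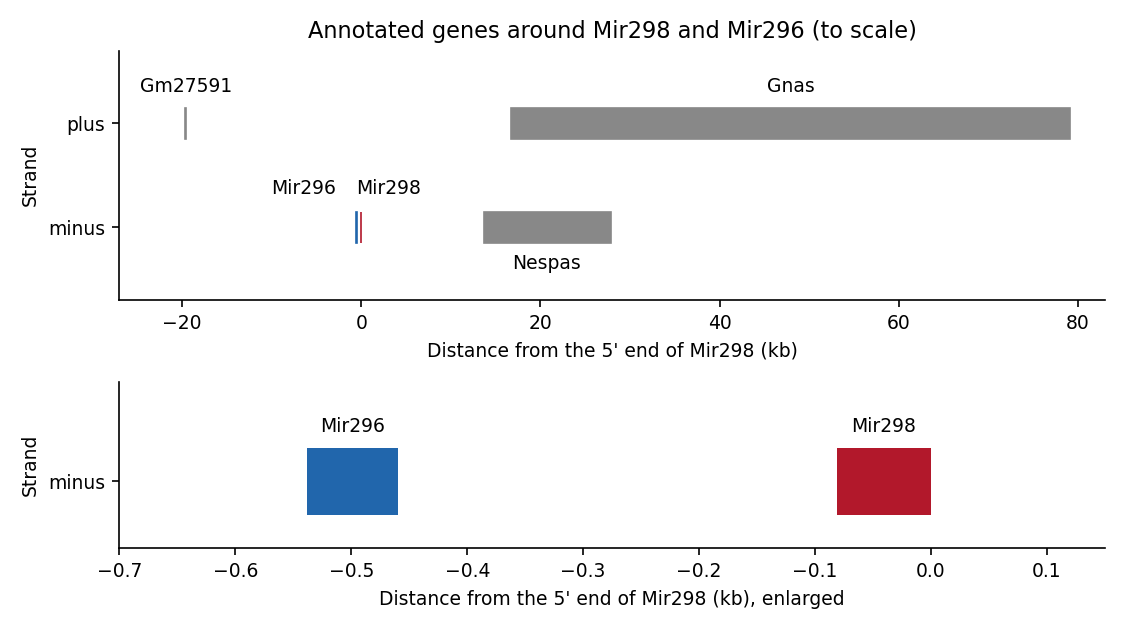
Selected annotated genes by distance from the 5′ end of Mir298 in kb, with the plus strand above the minus strand (top) and an enlargement of the pair (bottom). Mir298 and Mir296 sit side by side, 378 bases apart, and the annotated Nespas gene ends 13651 bases upstream of Mir298.

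Mir298 and Mir296 were among the more abundant miRNA genes of the embryonic heart. The counts of Mir298 were 119837 in replicate 1 and 12944 in replicate 2. These are 6489 CPM in replicate 1, with an exact 95% Clopper-Pearson interval of 6453 to 6526 CPM, and 6417 CPM in replicate 2, with an interval of 6307 to 6528 CPM. The replicate 1 value lies within the replicate 2 interval, so by own-strand totals the libraries differed by less than counting error for Mir298. Scaled to all mapped reads they did differ, as given further on.

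The counts of Mir296 were 97909 in replicate 1 and 9888 in replicate 2. These are 5302 CPM (interval 5269 to 5335 CPM) in replicate 1 and 4902 CPM (interval 4806 to 4999 CPM) in replicate 2. Here the intervals of the libraries do not overlap. All such intervals and limits allow for counting error alone, because the reads carry no molecular identifiers and several may copy the same molecule.

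The means were 6453 ± 51.3 CPM for Mir298 and 5102 ± 283 CPM for Mir296 (SD, n = 2). Mir298 was therefore 80.1 times, and Mir296 63.4 times, the median of 80.5 CPM over the 419 detected genes. Mir298 ranked 27th in each library. Mir296 ranked 32nd in replicate 1 and 35th in replicate 2. Together the pair took 1.18% of the counts of replicate 1 and 1.13% of those of replicate 2, a mean of 1.16% ± 0.033 (SD, n = 2). No reads were counted on the strand opposite either gene in either library. For each gene, that allows opposite-strand reads up to 0.00306% of its own counts in replicate 1 and 0.0303% in replicate 2. Of the 419 detected genes, 352 likewise had 0 opposite-strand counts in both libraries.

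**Figure D2:**
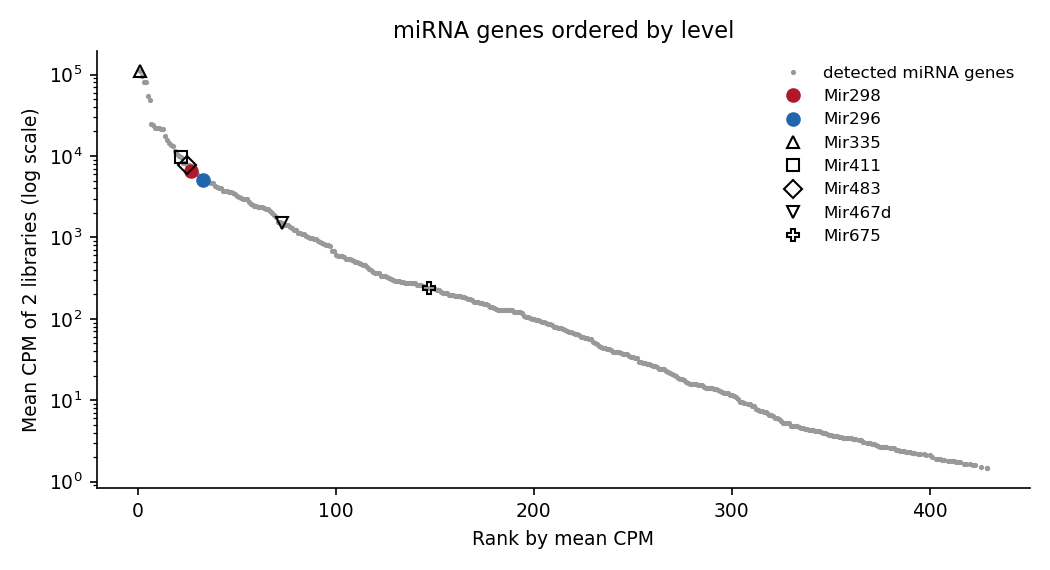
Mean CPM over the 2 libraries (log scale) by rank for the 419 detected miRNA genes, as grey points. Mir298 at 6453 CPM (red) and Mir296 at 5102 CPM (blue) lie in the upper part of the curve, below Mir335, Mir411 and Mir483 and above Mir467d and Mir675 (open symbols), which come from other imprinted loci.

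In the order of own-strand CPM over these 2 libraries, Mir298 stood apart from its neighbours and Mir296 did not. Just above Mir298 were Mir483 at 7845 ± 31.8 CPM and Mir487b at 7710 ± 416 CPM, and just below were Mir151 at 6251 ± 76.0 CPM and Mir93 at 6205 ± 33.6 CPM (SD, n = 2 each). None of these 4 overlapped Mir298 over the libraries, and no other gene of the table did. Just above Mir296 were Mir106b at 5722 ± 126 CPM and Mir30d at 5165 ± 107 CPM, and just below were Mir214 at 4898 ± 303 CPM and Mir1983 at 4886 ± 342 CPM. The ranges of Mir30d, Mir214 and Mir1983 overlapped that of Mir296, as did those of 2 further genes, so its place among them is not settled by 2 libraries. These genes are the nearest in mean CPM over 2 libraries. With 2 libraries of 1 tissue, no other likeness of pattern could be measured.

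**Figure D3:**
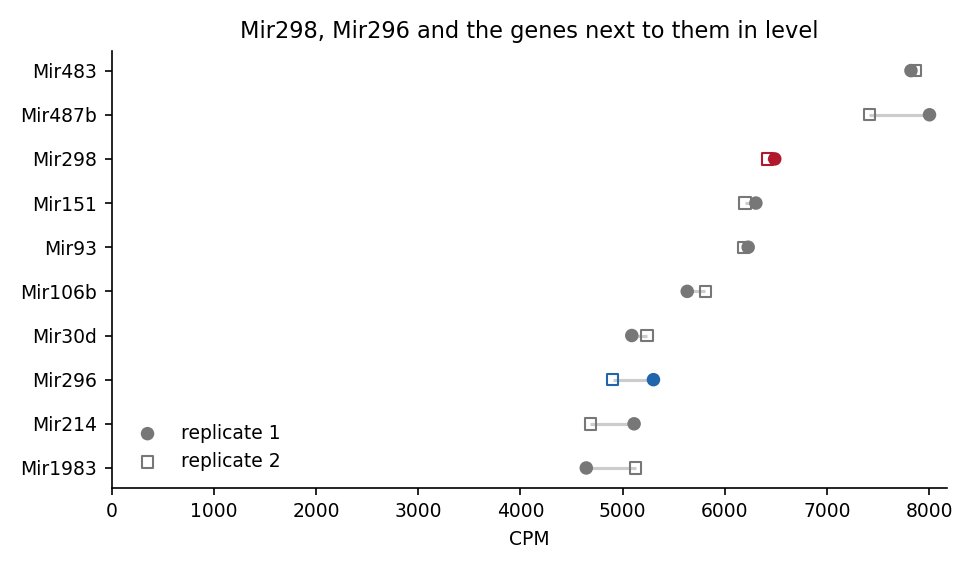
CPM in replicate 1 (filled circles) and replicate 2 (open squares) for Mir298 (red), Mir296 (blue) and the genes next to them in mean level (grey), with lines joining the libraries. Mir298 overlaps none of the genes plotted, while Mir296 at 4902 to 5302 CPM overlaps Mir30d, Mir214 and Mir1983.

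Mir298 was counted more often than Mir296 in both libraries. The ratio was 1.22 in replicate 1, with an exact binomial interval of 1.21 to 1.23, and 1.31 in replicate 2, with an interval of 1.28 to 1.34. On the log2 scale the mean was 0.34 ± 0.07 (SD, n = 2), which is 1.27-fold. Mir298 thus made up 55.0% of the pair's counts in replicate 1 (interval 54.8 to 55.2%) and 56.7% in replicate 2 (56.0 to 57.3%). The excess of Mir298 exceeded the spread between the libraries, and the intervals of the libraries do not overlap. Divided by the length of the gene models, the log2 ratio was 0.29, since Mir298 is 3 bases longer. Reads of RNAs this short cover about 1 mature miRNA each, so undivided counts were used. How well each miRNA is ligated and read is not known, so the ratio compares counts and not amounts of RNA.

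The balance within the pair was then set beside that of other neighbours. Detected miRNA genes next to each other on the same strand and at most 1000 bases apart formed 74 pairs. Their median difference in counts was 7.59-fold, and 32 of the pairs differed by more than 10-fold. Mir298 and Mir296 differed by 1.27-fold, and 6 pairs lay closer together. These were Mir293 with Mir294, Mir181d with Mir181c, Mir27a with Mir24-2, Mir93 with Mir106b, Mir188 with Mir532, and Mir302a with Mir302d, named after their values were seen. Genes with copies elsewhere, such as Mir24-2, lose reads that map to several places. Some differences are therefore uncertain, large ones and small ones such as that of Mir27a with Mir24-2. Without symbols that end in a hyphen and a digit, 5 of 58 pairs lay closer, and with genes up to 10000 bases apart, 6 of 120. A pair can share a member with the next pair, and pairs on 1 precursor share its transcription, so the pairs are not independent and no test was made.

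**Figure D4:**
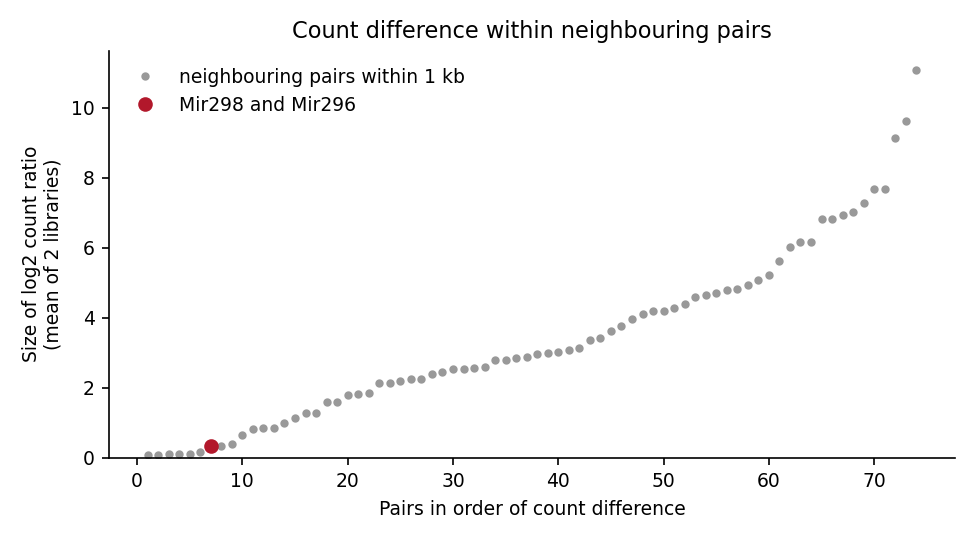
Size of the log2 count ratio (mean of 2 libraries) within each of 74 neighbouring pairs of detected miRNA genes, ordered from the most equal. Mir298 and Mir296 (red), at 0.34, stand 7th, while the median pair stands at 2.92.

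Between the libraries, neither gene differed by as much as 2-fold. Mir298 stood at 6417 CPM in replicate 2, against 6489 CPM in replicate 1, which is a ratio of 0.989 (exact interval 0.971 to 1.01). Mir296 stood at 4902 CPM in replicate 2, against 5302 CPM in replicate 1, which is a ratio of 0.925 (exact interval 0.906 to 0.944). Over all 419 detected genes, 11, or 2.63%, passed 2-fold on log2(CPM + 1), 3 of them higher and 8 lower in replicate 2. With 2 members and that share, 0 members past 2-fold is what most genes show and says little of the pair. The log2 ratios were -0.02 for Mir298 and -0.11 for Mir296, against a median of -0.01 over the detected genes. The size of the log2 ratio was smaller than that of Mir298 in 34 of the 419 detected genes and smaller than that of Mir296 in 174.

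The sign of these small differences rests on the total used. Scaled to 1000000 mapped reads of all kinds, Mir298 stood at 3662 in replicate 2 and 3370 in replicate 1, a log2 ratio of 0.12, and Mir296 at 2797 in replicate 2 and 2754 in replicate 1. By that total both were higher in replicate 2, and by own-strand counts both were lower. With 1 library on each side, these ratios describe these libraries and test nothing between hearts.

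**Figure D5:**
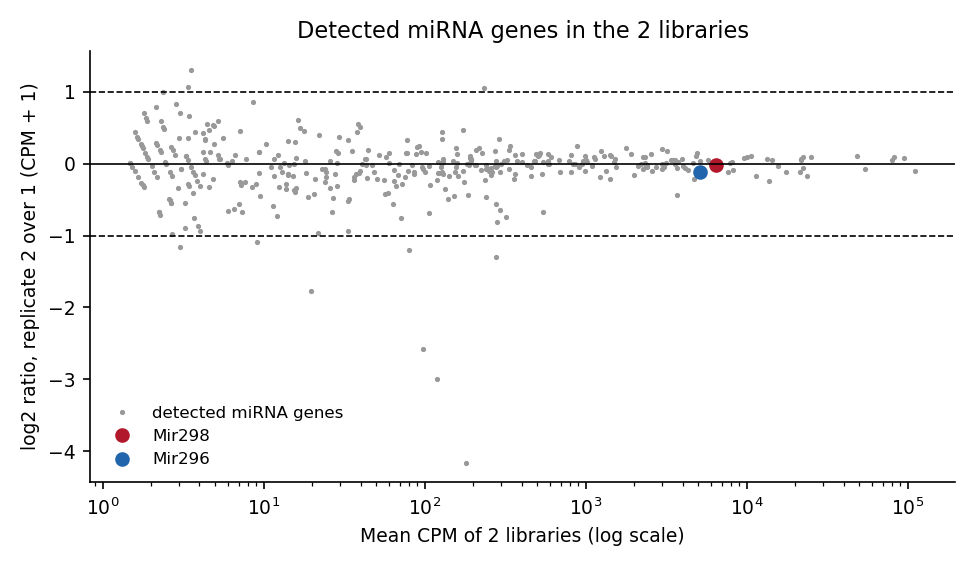
log2 ratio of replicate 2 over replicate 1, on CPM + 1, by mean CPM (log scale) for the 419 detected genes, with dashed lines at 2-fold and a solid line at equality. Mir298 (red, -0.02) and Mir296 (blue, -0.11) lie close to equality, while 11 genes lie past 2-fold.

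Other imprinted loci that carry miRNA genes gave a scale for the pair. Mir335, in the paternally expressed gene Mest, stood at 111844 ± 5328 CPM (SD, n = 2), and the pair's summed counts were 0.103-fold those of Mir335. Mir483, in the paternally expressed growth factor gene Igf2, stood at 7845 ± 31.8 CPM, and the pair summed had 1.47 times its counts. Mir675, made from the maternally expressed H19 RNA, stood at 241 ± 8.76 CPM, and the pair summed had 47.9 times its counts. Each of these ratios kept its direction in both libraries, with an SD of the log2 ratio of 0.05 or less.

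The maternally expressed Dlk1-Dio3 region on chromosome 12, taken as counted genes on the Meg3 strand from Meg3 to the end of Mirg, held 53 genes, 45 of them detected. Its genes summed to 5.75% ± 0.027 of counts, so that the pair, at 1.16%, had 0.201-fold the counts of the region. Gene by gene the order was different. Mir411 at 9666 ± 383 CPM and Mir487b at 7710 ± 416 CPM were above Mir298, and Mir431 at 5978 ± 12.9 CPM was in addition above Mir296. The other genes of the region were below both members, and the median of its detected genes was 366 CPM.

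The Sfmbt2 region on chromosome 2, paternally expressed in extraembryonic tissue of the mouse, held 107 counted genes, 10 of them detected, and 0.395% ± 0.0050 of counts. The pair summed had 2.92 times the counts of the whole region, whose leading genes were Mir467d at 1500 ± 15.9 CPM and Mir467e at 943 ± 1.31 CPM. That region holds many near-identical copies, whose multimapping reads are not counted, so its level is uncertain. Among the 165 counted genes of these loci together, Mir298 ranked 5th and Mir296 ranked 7th. The loci were listed from textbook knowledge with earlier results of these data known, and the list is not complete.

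Both roles reported for miR-296 have other miRNAs attached to them. Of the 4 genes listed for repression of pluripotency factors, Mir296 was the most abundant at 5102 CPM. Mir145a, reported to act on such factors in human embryonic stem cells, stood at 1238 ± 106 CPM and Mir134, from the Dlk1-Dio3 region, at 855 ± 0.29 CPM. Mir470 had 0 counts in both libraries. Summed, the list held 7319 CPM in replicate 1 and 7069 CPM in replicate 2, of which Mir296 itself gave 5302 and 4902 CPM.

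Of the 8 genes listed for angiogenesis, 7 were in the table and all 7 were detected. Mir296 was below Mir126a at 82102 ± 3673 CPM, the endothelial miRNA in Egfl7, and below Mir130a at 22305 ± 1045 CPM. It was above the hypoxia-induced Mir210 at 1120 ± 51.1 CPM and above Mir132 at 79.1 ± 3.95 CPM. Mir221 at 28.4 ± 4.45 CPM and Mir222 at 14.2 ± 1.22 CPM were lower still. Each of these differences was larger than the spread between libraries. Which heart cells hold miR-298 or miR-296 was not measured.

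The listed markers of heart cells were present, along with smaller amounts of listed miRNAs of other cell types. The total of own-strand counts was 18467499 for replicate 1, 9.15 times the 2017294 of replicate 2. The cardiomyocyte list Mir208a, Mir208b and Mir499 was detected in full and summed to 58391 and 63138 CPM in replicates 1 and 2. Muscle miRNA genes outside that list were far lower. Mean CPM was 2.23 for Mir1a-1, 3.54 for Mir133a-1, 5.20 for Mir133b and 57.1 for Mir206, and Mir133a-2 was not detected. Reads that map to several places are not counted, and their part in these low values was not tested. The smooth muscle list, Mir143 and the Mir145a named above, was detected in full and summed to 93726 and 98626 CPM. The endothelial Mir126a stood at 79505 and 84700 CPM. The erythroid list, also detected in full, summed to 995 and 983 CPM. The 5 epithelial genes summed to 1324 and 831 CPM, and the liver gene Mir122 stood at 395 and 160 CPM. The neural list had 2 of its 6 genes in the table and none detected, and the leukocyte list had Mir223 alone, at 255 and 218 CPM. The neural list holds only copies of Mir124 and Mir9, and reads that map to several places are not counted. Neither list is complete. Outside them, the neural genes Mir128-1 and Mir137 were detected at a mean of 102 and 24.0 CPM. The leukocyte genes Mir155 and Mir150 were detected at a mean of 129 and 16.3 CPM. By own-strand counts the sums of the epithelial, liver, leukocyte and erythroid lists were lower in replicate 2. Those of the cardiomyocyte, smooth muscle and endothelial lists were higher. The erythroid difference was small, at a log2 ratio of -0.02. For Mir298 and Mir296 the sign between libraries rests on the total used, so no shared direction with these lists is read. The part of any of these cells in the level of the pair was not tested.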

How the data were processed

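For each library the authors deposited a table of raw counts by miRNA gene, made on build mm10 with GENCODE M4 according to the notes filed with it. The aligner and the counter, not given in the sources used here, remain unnamed. The 3 count columns carry no names. From their sums they were taken as reads on both strands, the own strand and the opposite strand. Summary rows for reads on no gene were left out of totals. Of 1973 genes, 1894 matched GENCODE M21 by ID, which gave symbols and coordinates.

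CPM, ratios and ranks were computed from own-strand counts with Python 3.11.15 and scipy 1.17.1. Shares and ratios have exact 95% Clopper-Pearson intervals. Log2 ratios between libraries used a pseudocount of 1 CPM. Hairpins were folded with RNAfold 2.7.2. Scaling by edgeR 4.0.16 (TMM) and DESeq2 1.42.0 served as alternatives. With 1 group of 2 libraries, no contrast and no p-value was computed. The fold count and the intervals were run on simulated counts with counting error alone. That checks the code and not the spread between real libraries or copied reads.

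The members, lists and comparisons were chosen with earlier results of these data known. Genes named are the members, the 2 genes above and below each in mean CPM, counted genes within 1 Mb, leading genes of the other imprinted loci, genes sharing a seed or a run of 20 bases with a member, and the listed genes. Mir5621, the pairs of neighbouring genes, and the muscle, neural, leukocyte and erythroid genes outside the lists fall outside this rule. They were named after their values were seen. Mir378a and Mir142 are not among the counted genes, nor are 4 of the neural genes, and they were not analysed here.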

Additional observations from a re-analysis of the deposited data

Results flagged for a closer look

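Among the counted miRNA genes within 1 Mb of the pair, Mir6340 had 4 reads on the strand opposite to its annotation in replicate 1 and 0 in replicate 2, with 0 own-strand counts in both. The 4 reads stand above the 3 counts that a count of 0 allows, in a column that the comparisons do not use. They bear on neither Mir298 nor Mir296, which had 0 opposite-strand counts. Groups of 2 libraries were not tested for a library that stands apart.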

How the results depend on the processing

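Leaving out each replicate in turn gave 6417 to 6489 CPM for Mir298, 4902 to 5302 CPM for Mir296, a joint share of 1.13 to 1.18%, and a log2 ratio of Mir298 to Mir296 of 0.29 to 0.39. With counts on both strands Mir298 stood at 6160 CPM and the pair at 1.10%. Scaled to 1000000 mapped reads of all kinds, Mir298 stood at 3516, Mir296 at 2776 and the pair at 0.629%. Against a total without the 10 most abundant genes they stood at 14832 and 11724 per 1000000 counts and 2.66%. These shifts follow from the total by which the same counts are divided. By all mapped reads, a total chosen for this comparison after seeing the data, the log2 ratio of replicate 2 over replicate 1 was 0.023 for Mir296, against -0.11, and 0.12 for Mir298, against -0.02. TMM and DESeq2 scaling kept both ratios below 0 and left the count of genes past 2-fold at 11. That count was 6 of 299 genes with detection at 10 CPM and 20 of 587 with at least 1 count in both libraries. Of the 419 detected genes it was 15 with a pseudocount of 0.5 CPM and 7 with a pseudocount of 5 CPM. The comparison of neighbouring pairs, with its settings, and the ratio per base were also chosen after seeing the data. No paired analysis was possible because the libraries form 1 group. The shallower replicate 2 limits precision.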
